A study of Mus musculus with 4 samples.

Results

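Calm2, Calm3 and Calml4 were followed transcript by transcript in 4 RNA-seq libraries of mouse intestine. Every row listed under these 3 gene names was kept, which gave 16 of the 141738 transcripts and 3 of the 55203 genes in each library: 5 transcripts of Calm2, 4 of Calm3 and 7 of Calml4. The genes were taken up because 1 Calm2 transcript differed between the library groups; they were chosen by the FPKM values of that contrast in these same files, so what follows on that contrast describes these genes and tests nothing. Calm2 and Calm3 encode calmodulin itself, whereas Calml4 encodes a calmodulin-like protein, so the 3 genes are a family by sequence and not all sources of calmodulin. Other calmodulin genes are not analysed here.

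The mice were adult wild-type C57BL/6NTac males, 8 to 12 weeks old, specific-pathogen-free (SPF) and not otherwise treated. RVC 1 and RVC 2 carry the label of tissue processed with 4 mM ribonucleoside vanadyl complex, a ribonuclease inhibitor, and fresh frozen 1 and fresh frozen 2 the label of fresh-frozen tissue. The only protocol text, given for all 4, describes rinsing with the inhibitor, so how the frozen tissue was handled is known from its label alone. The libraries were made as a bulk measure of expression to set beside imaging of transcripts in tissue sections. The labels do not say whether the libraries came from separate animals, and each has its own batch number, which means that a batch effect and a group effect cannot be told apart.

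Calmodulin is a small calcium sensor with paired EF-hand loops; on binding calcium it wraps around target peptides and switches on kinases, the phosphatase calcineurin, calcium pumps and cyclic nucleotide enzymes. In smooth muscle it activates the kinase that phosphorylates myosin light chain, and in the intestinal brush border it serves as a light chain on the necks of unconventional myosins. Calml4 is known as a light chain of myosin 7b in the protein complex that links the tips of neighbouring microvilli. Many genes also give rise to transcripts without a full reading frame, among them RNAs that keep an intron and RNAs marked for nonsense-mediated decay, the pathway that degrades messages whose reading frame ends early.

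The coding sequences show how close the calmodulin pair is and how a sequenced read can still tell them apart. They are given 5′ to 3′ from the GENCODE vM39 transcripts on GRCm39, as the first 300 bases from the start codon, with capitals at the bases where the 2 genes differ. That of Calm2 lies in chr17:87742625-87754223 and that of Calm3 in chr7:16651121-16657768, both on the minus strand and with introns in between.
Calm2: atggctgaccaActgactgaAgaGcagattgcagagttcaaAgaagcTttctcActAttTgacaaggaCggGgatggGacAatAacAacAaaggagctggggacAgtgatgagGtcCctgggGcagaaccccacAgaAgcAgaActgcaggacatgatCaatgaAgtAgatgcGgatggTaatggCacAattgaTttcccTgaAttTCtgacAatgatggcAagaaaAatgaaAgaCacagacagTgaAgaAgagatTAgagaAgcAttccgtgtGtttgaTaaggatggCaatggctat
Calm3: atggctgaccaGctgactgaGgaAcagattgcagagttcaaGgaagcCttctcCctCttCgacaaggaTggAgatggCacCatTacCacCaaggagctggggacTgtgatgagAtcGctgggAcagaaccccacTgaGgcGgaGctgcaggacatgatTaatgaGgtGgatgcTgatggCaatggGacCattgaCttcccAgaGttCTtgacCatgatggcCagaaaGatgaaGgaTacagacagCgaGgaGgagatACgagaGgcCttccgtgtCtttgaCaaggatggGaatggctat
Within the stretch shown 50 bases differ. Over all 450 bases, stop codon included, 78 differ, 74 of them at the third codon position, 4 at the first and 0 at the second. They fall in 76 of 150 codons and change 0 of the 149 residues, so both genes encode the same protein. The longest identical stretch between the leading transcripts of the 2 genes was 17 nt, far below the 150-nt read length given in the labels. The Calml4 protein of 153 residues matched calmodulin at 66 of 153 aligned positions (43.1%), and its longest stretches shared with Calm2 and Calm3 were 9 and 13 nt.

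Levels of the whole genes are sums of FPKM, fragments per kilobase of transcript relative to the mapped fragments of the library, over all listed transcripts. Calm2 (ENSMUSG00000036438, chr17:87740840-87754363, GRCm39, in the files) stood at 292 and 314 FPKM in RVC 1 and 2 and at 404 and 316 FPKM in fresh frozen 1 and 2, a mean of 332 ± 49.7 (SD, n = 4). Fresh frozen 1 was the high library, and RVC 2 and fresh frozen 2 were nearly equal. Calm3 (ENSMUSG00000019370, chr7:16649304-16658039) stood at 114, 127, 132 and 118 FPKM in the same order, a mean of 123.0 ± 8.01 (SD, n = 4). Calml4 (ENSMUSG00000032246, chr9:62765362-62783203) stood at 116, 126, 138 and 112 FPKM, a mean of 122.96 ± 11.4 (SD, n = 4). Calm2 was the most abundant of the 3 in every library, 2.47 to 3.07 times Calm3 (mean 2.69 ± 0.265, SD, n = 4). Calm3 and Calml4 did not separate beyond their spread: their ratio ran from 0.957 to 1.06, above 1 in RVC 2 and fresh frozen 2 and below it in the other two.

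Between groups the gene sums were compared on log2(scaled FPKM + 1) after scaling libraries by median ratio. The RVC mean less the fresh-frozen mean was -0.23 for Calm2, -0.044 for Calm3 and -0.033 for Calml4. The quartiles of this difference over all genes tested were -0.17 and 0.18, so Calm2 lay below the lower one and Calm3 and Calml4 between them. The 2 fresh-frozen libraries were 0.32 apart for Calm2 and 0.26 apart for Calml4, more than the groups were. For Calm3 the 2 RVC libraries were 0.15 apart, likewise more than the groups. The groups did not overlap for Calm2 alone, which was lower in RVC. Among all 13774 genes tested 53.2% did not overlap, 26.6% being lower in RVC. Without fresh frozen 1 the Calm2 difference shrank to -0.074. In bulk tissue, fewer cells of a type and less RNA per cell cannot be told apart.

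In these files Calm2 is mostly 1 transcript. ENSMUST00000040440, 1205 nt long in the files, codes for calmodulin and stood at 252 and 272 FPKM in RVC 1 and 2 (bounds in the files 240 to 264 and 260 to 285). In fresh frozen 1 and 2 it stood at 396 and 310 FPKM (bounds 378 to 414 and 296 to 324). Both RVC libraries lay below both fresh-frozen libraries, where 24.4% of all transcripts tested were lower in RVC without overlap. No RVC bound reached a fresh-frozen one, but the bounds cover the estimate within 1 library only. This level also depends on how reads shared with ENSMUST00000238271, described next, were divided. Its share of the Calm2 sum was 86.2% and 86.7% in RVC 1 and 2 (82.1% to 90.8% over the bounds), against 97.9% and 98.1% in fresh frozen 1 and 2 (93.4% to 103%, since the upper bound can exceed the sum).

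The remainder in RVC was nearly all ENSMUST00000238271, the transcript whose difference brought these genes forward. This 403-nt transcript (chr17:87743054-87754363, minus strand), annotated as a target of nonsense-mediated decay, stood at 36.8 FPKM in RVC 1 (bounds 30.1 to 43.6) and 37.4 in RVC 2 (30.6 to 44.3). In fresh frozen 1 and 2 it was listed at 0.00021 and 0.000169 FPKM, with upper bounds of 0.351 and 0.253. Its share of the gene sum was 12.6% in RVC 1 (10.3% to 14.9% at the bounds) and 11.9% in RVC 2 (9.73% to 14.1%), and at most 0.0867% and 0.0801% at the upper bounds in fresh frozen 1 and 2. The libraries of a group were close to each other and the groups stood far apart. This was the 1 transcript of 24184 tested, or 0.00413%, with a limma Benjamini-Hochberg adjusted p under 0.05, a fact that chose it and supports nothing further. With any one library left out, 0 transcripts passed, the spread then coming from the other group alone, while 2108 to 2976 had an unadjusted p under 0.05 against 3754, or 15.5%, with all 4.

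The sequence of ENSMUST00000238271 holds nothing of its own. In GENCODE vM39 it is identical to the first 403 of the 1216 nt of ENSMUST00000040440, with the same start, 0 exon bases and 0 splice junctions absent from the other Calm2 transcripts. It ends 85 nt into the 107-nt exon 4 of the longer transcript, at a point shown here in 30 bases of the message (chr17:87743039-87743068, minus strand), with the last 15 bases of the short transcript in capitals.
End of ENSMUST00000238271: AGAAGAGATTAGAGAagcattccgtgtgtt
The short transcript holds 263 calmodulin coding bases, or 87 of the 149 codons, but its annotated reading frame starts 98 nt upstream of the calmodulin start, in another frame, and is 111 nt long. Coverage, the mean read depth the files assign to a transcript, was 147 and 146 in RVC 1 and 2, which is 14.6% and 13.7% of the coverage of ENSMUST00000040440 in the same library. Within a library coverage stood in the same proportion to FPKM for both transcripts, so these percentages restate the FPKM ratio and are no separate evidence. Every base and junction of the short transcript thus also lies in the full-length message, so its level in the files rests on how Cufflinks, the program that made them, divided shared reads. How that division was reached in each library was not tested. Leaving it out, Calm2 stood at 255 and 277 FPKM in RVC 1 and 2, against 404 and 316 in fresh frozen 1 and 2.

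**Figure D1:**
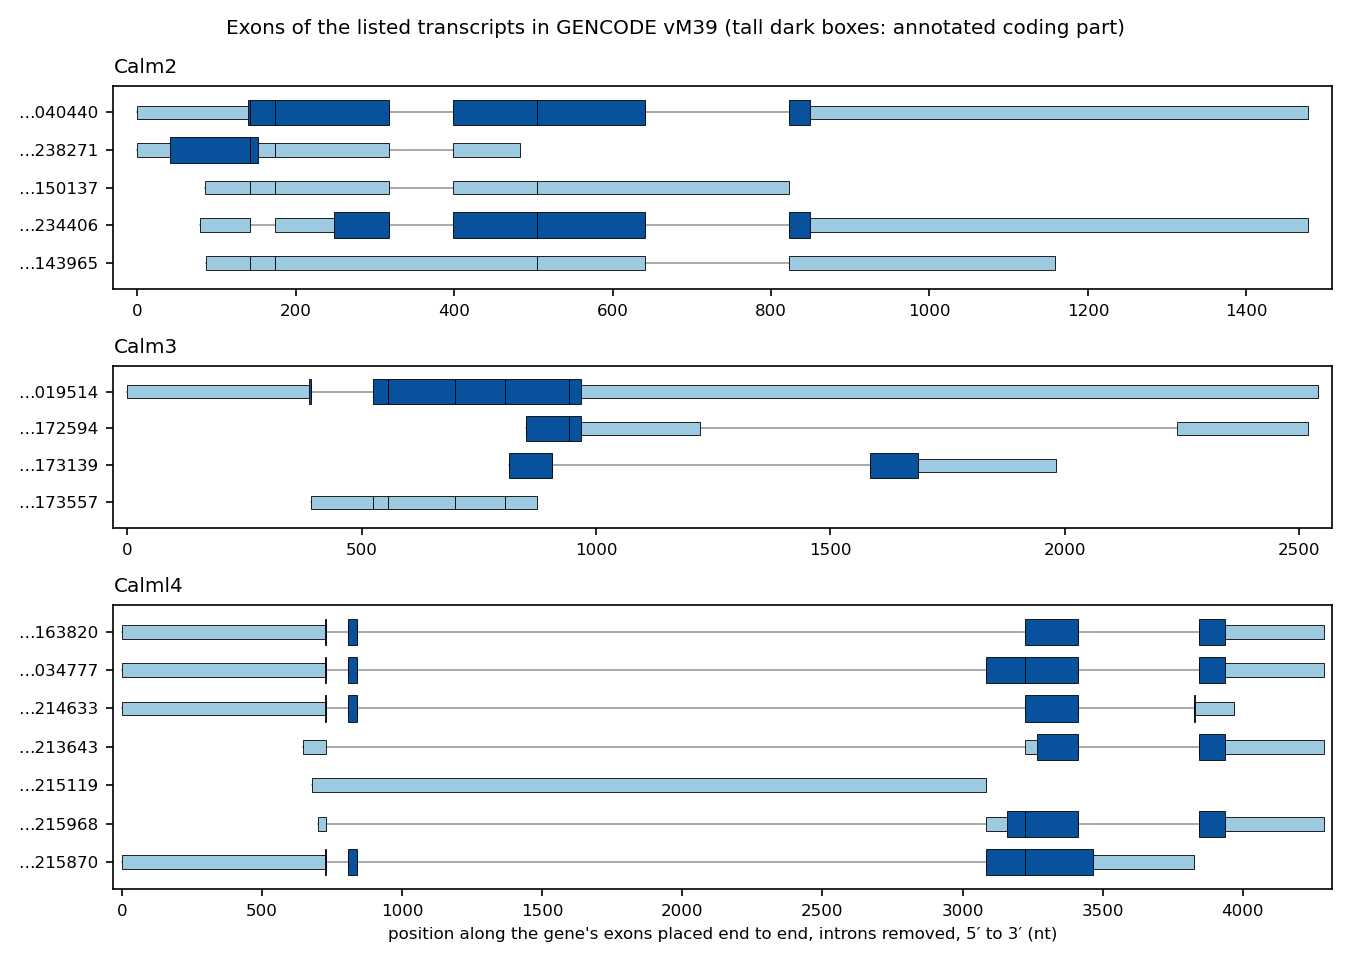
Exons of the 16 transcripts by gene, placed end to end with introns removed; the x axis is position in nt, 5′ to 3′, light boxes are exons, tall dark boxes the annotated coding part, and thin lines join exons that are not adjacent. Within Calm2, ENSMUST00000238271 covers the first 403 nt of ENSMUST00000040440 and has no exon that the other lacks.

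On-off listing of this kind was rare in these libraries. Of 5923 transcripts of at least 300 nt that reached 10 scaled FPKM in some library, 19 (0.321%) also stood under 0.01 in another. At these cutoffs 1 of the 5923, or 0.0169%, was at 10 or more in both libraries of one group and under 0.01 in both of the other, namely ENSMUST00000238271, which was chosen for these values. The count depends on the cutoff of 10, since transcripts of Niban1 and Actr3, described next, were under 0.01 in fresh frozen with at least 1 RVC library below 10. By the root mean square difference of centred log2(scaled FPKM + 1) over the 4 libraries, the transcripts of other genes most like it were ENSMUST00000134499 of Niban1, ENSMUST00000178686 of Mcl1 and ENSMUST00000188497 of Actr3, each more than 1 log2 unit away, at 1.05, 1.07 and 1.08. The Niban1 transcript was at 8.88 and 7.18 scaled FPKM in RVC 1 and 2 and under 0.01 in fresh frozen. The Actr3 transcript was at 11.2 and 5.80 in RVC 1 and 2 and under 0.01 in fresh frozen. The Mcl1 transcript was at 12.9 and 9.01 in RVC and at 0.368 and 0.304 in fresh frozen.

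The other 3 Calm2 transcripts were minor. ENSMUST00000150137, a 657-nt transcript that keeps an intron, stood at 2.35, 2.37, 4.80 and 2.83 FPKM in RVC 1, RVC 2, fresh frozen 1 and fresh frozen 2, with shares of 0.807%, 0.755%, 1.19% and 0.894%. Fresh frozen 1 was high and the other three were close, with bounds that overlapped among all 4 libraries for this transcript. The coding transcript ENSMUST00000234406 and the intron-retaining ENSMUST00000143965 each held between 0.125% and 0.688% of the sum. Together the intron-retaining pair took 1.02% and 1.00% of Calm2 in RVC and 1.53% and 1.20% in fresh frozen. By FPKM times length, a measure of fragments instead of molecules, the share of ENSMUST00000238271 in RVC was 4.49% ± 0.199 in place of 12.3% ± 0.506 (SD, n = 2), since the transcript is short.

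In all 4 libraries most of Calm3 was 1 coding transcript. ENSMUST00000019514, the 2290-nt coding transcript, stood at 98.7 and 106 FPKM in RVC 1 and 2 (bounds 93.9 to 104 and 101 to 111) and at 110 and 101 FPKM in fresh frozen 1 and 2 (bounds 105 to 115 and 96.2 to 106). Its shares were 86.4%, 83.4%, 83.5% and 85.2% (79.3% to 90.6% over the bounds), and the groups overlapped. ENSMUST00000172594, a 648-nt decay candidate that lacks the start of the message and has a splice of its own behind the stop codon, held 8.69%, 10.8%, 9.91% and 8.73% (bounds from 6.63% to 13.0%). Its level was 9.94, 13.7, 13.1 and 10.3 FPKM, and here too the groups overlapped.

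The other two Calm3 transcripts were smaller. ENSMUST00000173139, a 490-nt coding fragment with its own junction, stood at 2.44, 3.97, 4.85 and 4.76 FPKM, with shares of 2.13%, 3.12%, 3.68% and 4.02% (0.908% to 5.48% over the bounds). Both RVC libraries were below both fresh-frozen ones, with overlapping bounds, where 24.4% of all transcripts tested were lower in RVC without overlap. ENSMUST00000173557, a 482-nt transcript with its own first exon and no defined coding part, held 2.81%, 2.75%, 2.93% and 2.03% (0.886% to 4.44% over the bounds). Unlike the short Calm2 transcript, each of the 3 minor Calm3 transcripts has 1 junction found in no other listed Calm3 transcript. By FPKM times length ENSMUST00000019514 held 95.1% to 96.1% of the gene.

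**Figure D2:**
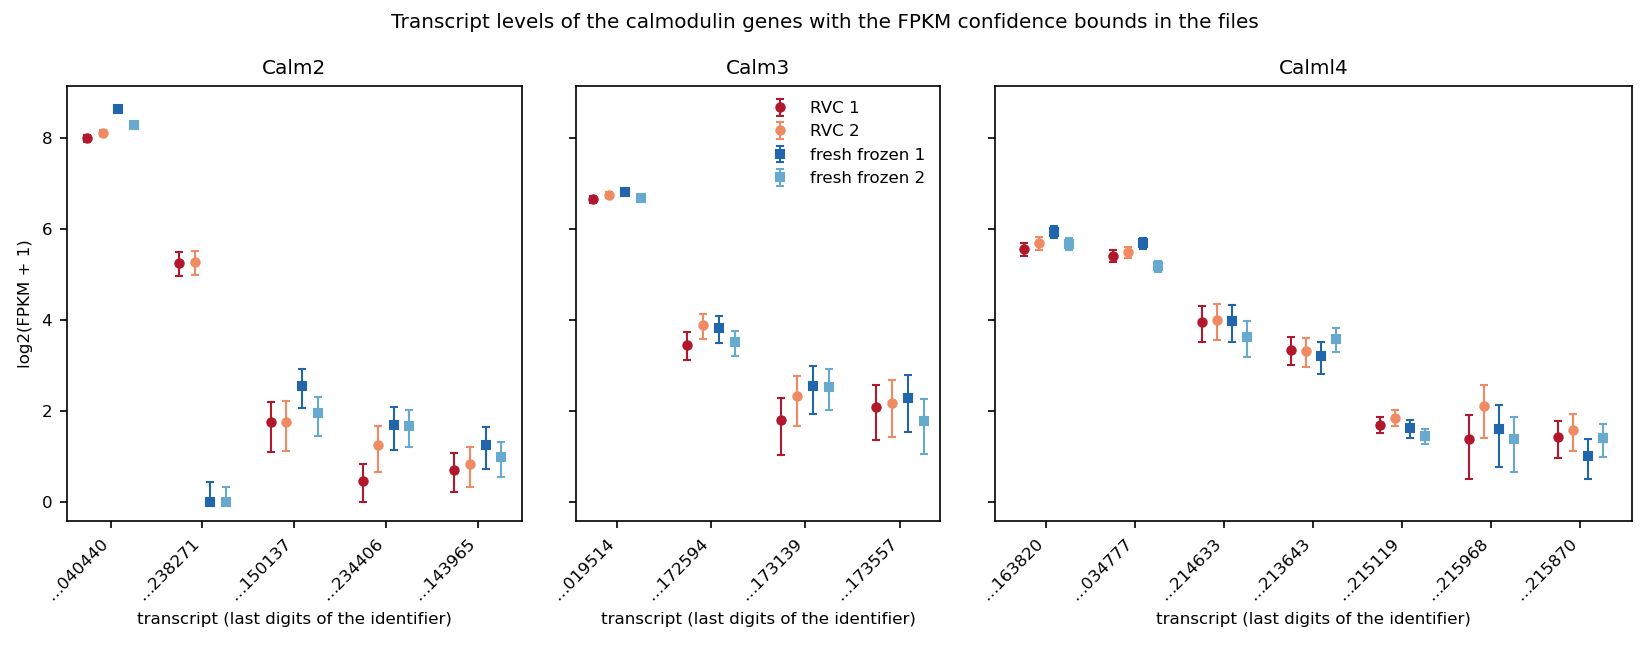
Levels of all 16 transcripts on a log2(FPKM + 1) axis, 1 panel per gene; circles are the RVC libraries, squares the fresh-frozen libraries, and bars the lower and upper FPKM bounds in the files. The Calm2 transcript ENSMUST00000238271 sits at 36.8 and 37.4 FPKM in RVC 1 and 2 and next to 0 in both fresh-frozen libraries, whereas no Calm3 or Calml4 transcript is set apart in this way.

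Calml4 was split between a pair of main transcripts that, in GENCODE vM39, differ by 1 cassette exon. The exon is shown because its use divides the gene: exon 3 (chr9:62775959-62776099, plus strand) is given in capitals between the adjoining 15 bases of exons 2 and 4, followed by the junction that forms when it is skipped, with the start of exon 4 in capitals.
Exon 3 included: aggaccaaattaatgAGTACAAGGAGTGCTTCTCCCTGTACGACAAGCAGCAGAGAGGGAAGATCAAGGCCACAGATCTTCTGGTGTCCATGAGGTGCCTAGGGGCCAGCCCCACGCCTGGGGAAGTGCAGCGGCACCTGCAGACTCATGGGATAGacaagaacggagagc
Exon 3 skipped: aggaccaaattaatgACAAGAACGGAGAGC
The exon is 141 nt long, or 47 whole codons, so the frame is the same with and without it. It is coding in ENSMUST00000034777 (459 coding nt before the stop codon) and absent from ENSMUST00000163820 (318 coding nt).

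The transcript without the exon was the more abundant of the pair in every library. ENSMUST00000163820 stood at 46.0 and 50.5 FPKM in RVC 1 and 2 (bounds 41.3 to 50.6 and 45.5 to 55.4) and at 59.8 and 49.8 FPKM in fresh frozen 1 and 2 (bounds 54.2 to 65.4 and 45.4 to 54.3). ENSMUST00000034777 stood at 41.2 (37.5 to 44.9), 43.6 (39.8 to 47.5), 50.0 (45.7 to 54.3) and 35.2 (32.0 to 38.3) FPKM. The ratio of skipped to included transcript was 1.12, 1.16 and 1.20 in RVC 1, RVC 2 and fresh frozen 1, where the bounds of the pair overlapped, and 1.42 in fresh frozen 2, where they did not. By FPKM times length the order was not stable: the mean shares were 39.65% for ENSMUST00000034777 and 39.03% for ENSMUST00000163820.

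Over all 6 spliced Calml4 transcripts, those with exon 3 took 39.0% and 39.7% of FPKM in RVC 1 and 2 and 39.1% and 34.7% in fresh frozen 1 and 2, a mean of 38.1% ± 2.27 (SD, n = 4). Fresh frozen 2 was the low library and the groups overlapped. The share of ENSMUST00000163820 in the gene sum was 39.6%, 40.1%, 43.4% and 44.5% in RVC 1, RVC 2, fresh frozen 1 and fresh frozen 2, and that of ENSMUST00000034777 was 35.4%, 34.7%, 36.3% and 31.3%. At the bounds the first ran from 35.6% to 48.4% and the second from 28.6% to 39.4% over the libraries.

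The remaining 5 Calml4 transcripts were smaller. ENSMUST00000214633, which skips exon 3 and enters the last exon at another acceptor site, 18 nt upstream, held 12.5%, 11.9%, 10.7% and 10.1% (7.15% to 16.1% over the bounds). ENSMUST00000213643, which skips exons 2 and 3, held 7.80%, 7.10%, 5.92% and 9.73% (4.38% to 11.6% over the bounds), highest and lowest within the fresh-frozen pair. ENSMUST00000215119, a single 2403-nt exon that spans intron 1 and runs into intron 2, has 2324 bases in no other transcript of the gene. It held 1.92%, 2.05%, 1.49% and 1.53% (1.20% to 2.39% over the bounds). ENSMUST00000215968, which joins exon 1 to exon 3, held between 1.35% and 2.59% (0.347% to 3.90% over the bounds). ENSMUST00000215870, which ends in the intron after exon 4, held between 0.719% and 1.56% (0.293% at the lowest bound). Of these, the groups did not overlap for ENSMUST00000214633, ENSMUST00000215119 and ENSMUST00000215870, each higher in RVC on the scaled level. Among all transcripts tested 25.9% were higher in RVC without overlap. The margin was small for ENSMUST00000214633, at 14.58 in RVC 1 against 14.47 in fresh frozen 1. It was likewise small for ENSMUST00000215870, at 1.70 in RVC 1 against 1.63 in fresh frozen 2.

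**Figure D3:**
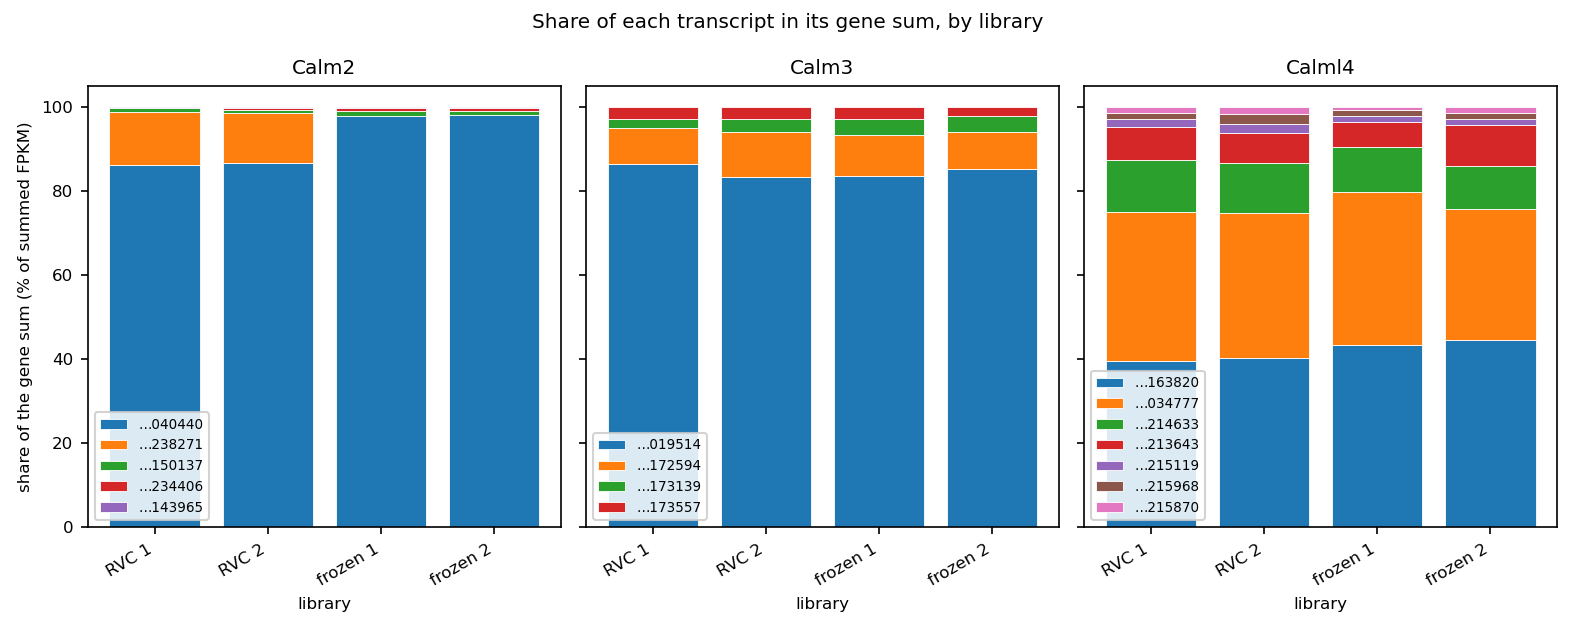
Share of each transcript in the FPKM sum of its gene, stacked to 100%, 1 bar per library. In Calm2 the segment of ENSMUST00000238271 takes 12.6% and 11.9% in RVC 1 and 2 and is not visible in fresh frozen, while the Calm3 and Calml4 bars keep their segments in every library.

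Across the 15 of 16 transcripts that passed a mean of 1 scaled FPKM, the groups did not overlap for 8, with 4 higher and 4 lower in RVC. Among all transcripts tested 25.9% were higher and 24.4% lower without overlap, 50.3% in all. The one that failed the minimum was ENSMUST00000143965 of Calm2.

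Genes near-identical in sequence were few and low. By blastn at 95% identity or more over at least 150 nt, the leading Calm2 transcript matched the processed pseudogenes Gm15720 (0.706 to 1.78 FPKM) and Gm7308 (0.207 to 0.489 FPKM), that of Calm3 matched Gm5881 (at most 0.104 FPKM), and that of Calml4 matched none. On the opposite strand, the span of Gm10653 overlaps that of Calml4 over 10567 nt, introns included, and Gm10653 stood between 0.26 and 0.566 FPKM. Gm65472, also antisense, overlaps the span of Calm2 over 333 nt and was not among the genes listed. Exon bases shared by these pairs were not counted. Without a stated strand setting, reads from any sequence that such a pair shares cannot be told apart.

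Tissue and cell markers were read in the same libraries. Labels name ileum and the protocol distal colon. Of 7 colon genes, 7 reached 1 scaled FPKM in every library, with summed levels of 4538 to 6661. Of 7 ileum genes 4 did, with sums of 162 to 205 and Fgf15 and Apoa4 listed at 0. Most of the ileum sum was Mep1a, at 120 to 184. Fabp2 stood at 14.5 to 44.2, Fabp6 and Slc10a2 at 2.35 to 3.90 and Lct at most at 0.0247. The 7 epithelial genes summed to 4559 and 4343 in RVC 1 and 2 and to 4704 and 3649 in fresh frozen 1 and 2. The 7 smooth muscle genes summed to 1114 and 1660 against 670 and 738.5, all 7 without overlap, and 5 of 5 endothelial and 4 of 4 plasma cell genes were likewise higher in RVC, where 26.6% of all genes tested were higher without overlap. Of the genes tested in the other cell type lists, 2 of 7 epithelial, 1 of 6 enteric neuron, 1 of 1 enteric glia and 0 of 2 leukocyte genes were higher without overlap. In these lists 0 genes were lower without overlap. No epithelial, smooth muscle, endothelial or plasma cell marker was at 0, and the part of cell types in the results below was not tested. Relative depth ran from 72.6% of the deepest library, fresh frozen 2, and the number of fragments is unknown.

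Calmodulin partners, in 7 lists, and other EF-hand genes, in 1 list, came to 106 genes, of which 77 could be tested. By limma with Benjamini-Hochberg adjustment over all genes, 0 of the 77 passed 0.05 in either direction, where 5 of 13774 genes, or 0.0363%, did. At an unadjusted p under 0.05 there were 21 of 77 (27.3%), 15 higher and 6 lower in RVC, against 18.4% of all genes, 9.49% higher and 8.91% lower. The median difference over the 77 was 0.12 on the log2 scale, against 0.0075 over all genes tested. Leaving out RVC 1 let 1 gene pass, Myl9, at a limma adjusted p of 0.0463, a fit in which RVC 2 stands alone and is assumed to vary as the fresh-frozen pair does.

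Closest to Calml4 is the intermicrovillar adhesion complex, which ties microvillus tips together. Of its 5 genes 0 passed limma's adjusted threshold, and 2 had an unadjusted p under 0.05 (40%, against 18.4% of all genes tested). The protocadherin Cdhr5 stood at 363 and 331 scaled FPKM in RVC 1 and 2 and at 261 and 247 in fresh frozen, a log2 difference of 0.45 (SE 0.117, limma adjusted p = 0.145). The motor Myo7b, to which Calml4 binds, stood at 34.7 and 27.5 against 22.0 and 27.0 scaled FPKM (difference 0.33, SE 0.152, limma adjusted p = 0.291). The other protocadherin, Cdhr2, stood at 196 and 169 against 132 and 125, a difference of 0.50 (SE 0.119, adjusted p = 0.132). Of the scaffolds of the complex, Ush1c stood at 64.6 and 56.1 against 52.6 and 49.3, and Anks4b at 60.6 and 59.0 against 54.4 and 60.1, with overlap. Both RVC libraries were thus above both fresh-frozen ones for 4 of the 5 genes, against 26.6% of all genes tested, and the Calml4 sum overlapped between the groups.

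Among unconventional myosins, whose necks bind calmodulin, 0 of 11 passed and 2 had an unadjusted p under 0.05. That was 18.2%, near the 18.4% of all genes tested. Myo1a, the brush border myosin I, was the most abundant at 139 ± 14.4 scaled FPKM (SD, n = 4), and its groups overlapped. Myo6, a minus-end-directed motor, stood at 46.5 and 47.8 in RVC and 57.3 and 52.1 in fresh frozen. The log2 differences of the class I myosins Myo1c and Myo1e were 0.38 and 0.28, at limma adjusted p-values of 0.172 and 0.243.

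Other EF-hand genes held 6 testable members, 0 of which passed, with 2 at an unadjusted p under 0.05. That was 33.3%, against 18.4% of all genes tested. The myosin light chain Myl6 was the most abundant at 1285, 1448, 1179 and 1133 scaled FPKM in RVC 1, RVC 2, fresh frozen 1 and fresh frozen 2, far above Calm2. Myl12b, a regulatory light chain, followed at 553 ± 51.8 (SD, n = 4). The smooth muscle light chain Myl9 stood at 199 and 292 in RVC against 142 and 130, a log2 difference of 0.82 (SE 0.181, limma adjusted p = 0.126), in the same libraries in which the smooth muscle markers were higher. The centrin Cetn3, a centrosome protein, was at 18.1 and 20.6 against 29.4 and 24.2. The calmodulin relatives Calm4 and Calm5 were listed at 0 in every library.

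Of 11 calmodulin-dependent kinase genes tested 0 passed, and 6 had an unadjusted p under 0.05, all with the higher mean in RVC. That was 54.55% of the list, against 18.4% of all genes tested, 9.49% being higher in RVC. Mylk, the myosin light chain kinase, was the most abundant at 59.0 and 67.4 scaled FPKM in RVC 1 and 2 and 46.8 and 48.3 in fresh frozen 1 and 2 (log2 difference 0.40, SE 0.112, limma adjusted p = 0.157). Camk2d, a subunit of calmodulin kinase II, stood at 42.3 ± 2.01 (SD, n = 4) with overlapping groups. The kinases Pnck and Camkk2 had the largest differences on the list, 0.52 and 0.46, at mean levels of 1.47 and 1.57 scaled FPKM.

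Calcineurin and its transcription factor targets gave 0 of 11 past the threshold. At an unadjusted p under 0.05 there were 2 (18.2%, against 18.4% of all genes tested), both lower in RVC. These were the catalytic subunit Ppp3cb, at 9.37 and 10.7 against 13.2 and 15.03 scaled FPKM (log2 difference -0.45, SE 0.128, limma adjusted p = 0.159), and the regulatory subunit Ppp3r1, at 21.7 and 24.0 against 28.7 and 26.9 (-0.27, adjusted p = 0.260). The other catalytic subunit Ppp3ca was at 21.5 ± 1.33 (SD, n = 4) with overlapping groups.

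Pumps and channels gave 0 of 10 past the threshold and 2 at an unadjusted p under 0.05, 1 in each direction. That was 20%, against 18.4% of all genes tested. The plasma membrane calcium pump Atp2b1 was the most abundant at 118 ± 3.14 scaled FPKM (SD, n = 4) and differed by -0.022 between groups, while the pump Atp2b4 differed by 0.41 and the calcium channel Cacna1d by -0.42. The inositol trisphosphate receptor Itpr3 stood at 14.6 ± 1.80. Of second-messenger enzymes 0 of 5 passed and 1 had an unadjusted p under 0.05 (20%, against the same 18.4%). This was the inositol trisphosphate kinase Itpkc, at 14.5 and 13.7 against 10.6 and 11.6. Its relative Itpkb stood at 3.39 ± 0.355 (SD, n = 4).

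Calmodulin-binding scaffolds and buffers gave 0 of 18 past the threshold and 4 at an unadjusted p under 0.05, 2 in each direction. That was 22.2%, against 18.4% of all genes tested. The spectrin Sptbn1 and the scaffold Iqgap2 were the most abundant at 108 ± 6.75 and 105 ± 10.6 scaled FPKM (SD, n = 4), with overlapping groups. Pcp4l1 stood at 20.3 and 28.6 in RVC against 13.1 and 16.3, a log2 difference of 0.68 (limma adjusted p = 0.145). Marcks, a membrane protein that binds calmodulin and actin, stood at 10.4 and 12.7 against 16.3 and 19.1, a difference of -0.58 (adjusted p = 0.134).

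**Figure D4:**
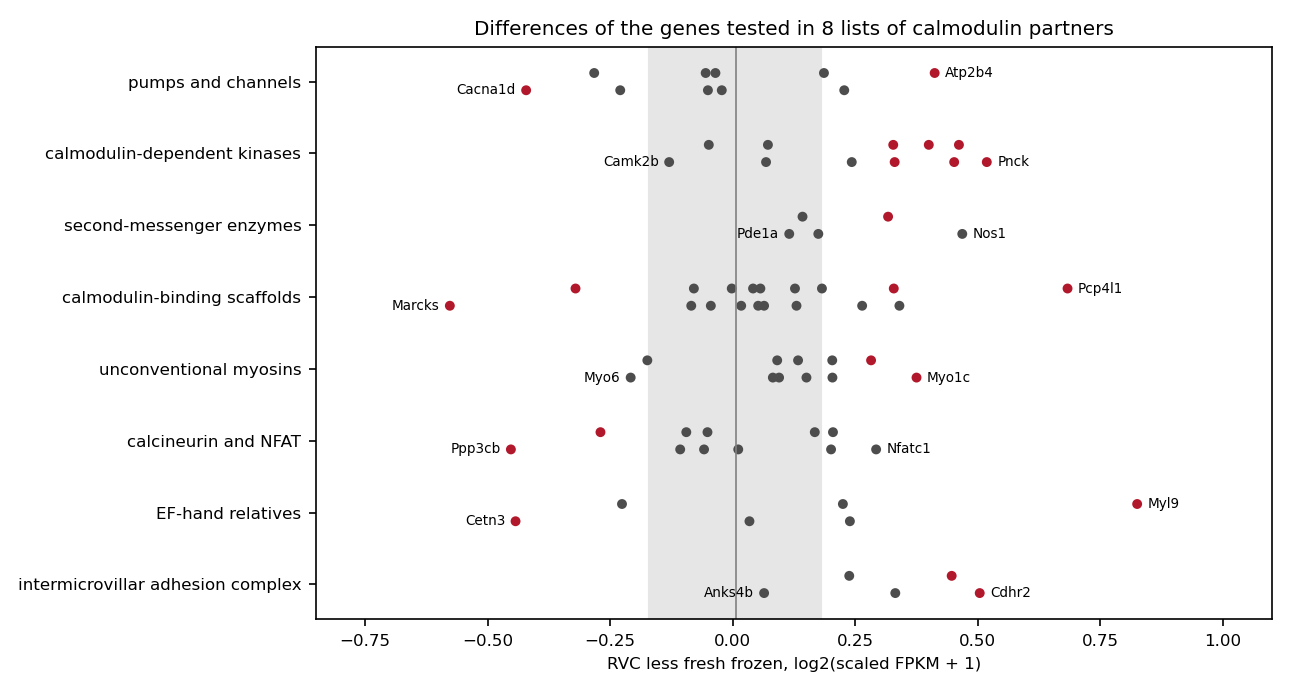
RVC less fresh frozen on log2(scaled FPKM + 1) for the 77 genes tested in 8 lists of calmodulin partners and EF-hand relatives, 1 point per gene; red points have an unadjusted limma p under 0.05, the grey band spans the lower to upper quartile of all 13774 genes and the line their median, 0.0075. The lowest and highest gene of each list is named, from Marcks at -0.58 to Myl9 at 0.82, and 0 genes passed after adjustment.

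Genes with the library profile most like each gene were found by the root mean square difference of centred log2 levels over the 4 libraries, among 11803 genes. For Calm2 they were Cox7a2l (0.0094), Thg1l (0.014) and Ppid (0.015), for Calm3 Zfp612, Plp2 and Tank, and for Calml4 Rpl31-ps12, Slc31a1 and Ghr. Cox7a2l stood at 104 and 112 scaled FPKM in RVC 1 and 2 and at 140.0 and 113 in fresh frozen 1 and 2, high in fresh frozen 1 as Calm2 was. Profiles over 4 libraries that differ little match many genes: 163, 384 and 276 genes lay within 0.05 of Calm2, Calm3 and Calml4.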

How the data were processed

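Gene expression was measured by paired-end RNA-seq of ribosomal RNA-depleted libraries, 2 per group. Per the submitters' processing notes, the authors aligned reads with TopHat2 2.1.1 to GRCm39 and estimated transcripts with Cufflinks 2.2.1. The annotation release and strand setting are not given in the sources used here. The deposited values, per the file headers, are FPKM with lower and upper bounds, coverage (a signal of read depth per base) and transcript length. FPKM is no count, so no count model was used. Cufflinks divides reads of overlapping transcripts by likelihood. Reads that also fit a longer transcript can be assigned to either.

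Gene values were sums of FPKM over transcripts; a share is the transcript's FPKM, or its bound, over that sum. The bounds cover the estimate within 1 library only. Libraries were scaled by median ratio (factors 0.989 to 1.02), and log2(scaled FPKM + 1), a pseudocount of 1, was fitted with limma 3.58.1 in R 4.3.3 (eBayes with trend, two-sided, 4 libraries, no covariate). Genes and transcripts entered at a mean of 1 scaled FPKM and a length of 300 nt with status OK, and p-values were adjusted by Benjamini-Hochberg at 0.05. Differences on this scale understate changes near 1 FPKM. A permutation of 2 libraries against 2 cannot give p below 0.333. P-values measure the spread between these libraries, which may be technical. On simulated data over 13774 genes, 89.2% of 2-fold and 99.9% of 4-fold changes were recovered with 4.28% false calls. Over 24184 transcripts 8.5% and 83.3% were recovered. In each of 10 runs 200 features were changed, far more than the 5 genes and 1 transcript that passed in the data. The adjusted threshold is stricter where fewer features pass, so these recovery shares do not carry over to the fit of the data. Changes were planted only in features well above the minimum of 1 scaled FPKM, with normal noise drawn from the spread that limma itself fitted. Recovery near that minimum, or with on-off values, was not tested.

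Exons came from GENCODE vM39 (99.1% of transcripts matched; all 16 here, though several have other ends there than in the files) and copies from blastn 2.17.0. Tables were joined with pandas 2.3.3. The 3 genes and all lists were chosen with earlier results of these data known. Named were transcripts with 1% of their gene sum in any library, per list the 2 most abundant genes and the 2 with the largest difference without overlap, and 3 genes by likeness. ENSMUST00000234406, ENSMUST00000143965, Myo7b, Ush1c, Anks4b, Calm4, Calm5 and the genes named as copies, antisense neighbours or tissue markers were named outside that rule. Alternatives were other pseudocounts, scalings, filters, shares and fits, and each library left out.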

Additional observations from a re-analysis of the deposited data

How the results depend on the processing

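Of 105 alternative values, 77 were labelled unchanged: within the spread between libraries or, for counts past the threshold, an equal or similar number. The label for counts does not look at which genes passed. Much of this tally was fixed beforehand and speaks for no result. Leaving out 1 library cannot move a gene sum or share beyond that spread. For gene sums the block on sample number changes nothing, and leaving out transcripts under 300 nt changes no sum or share. By limma, 5 genes passed with all 4 libraries, 8 under upper-quartile scaling, 2 at a mean of at least 5 FPKM, and 0 without a filter on low values (3531 at an unadjusted p under 0.05) or without a trend (2468), and between 20 and 45 with 1 library left out. A library left alone in its group is assumed there to vary as the other group does. The replicate block on sample number gave 89 genes, 0 genes of the 8 calmodulin lists and 1 transcript; the labels do not say that the numbers mark shared animals, and same-numbered libraries deviated from their group means with r = -0.13 across 13774 genes. Genes of these lists past the threshold numbered 0 to 1 with 1 library left out and 0 in all other fits run. For transcripts the count of 1 became 0 without a filter (9177 at an unadjusted p under 0.05) and with any library left out, 6 at a mean of at least 5 FPKM and 7 without a length minimum. The causes were not tested.

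Taking ENSMUST00000040440 instead of the sum put the Calm2 difference at -0.41. Leaving out 1 library gave -0.39 to -0.074 for Calm2, -0.12 to 0.030 for Calm3 and -0.16 to 0.095 for Calml4, so the signs for Calm3 and Calml4 were not stable. By FPKM times length, which weights long transcripts, ENSMUST00000238271 held 4.49% in RVC and 1.77e-05% in fresh frozen, ENSMUST00000040440 held 94.6% and 98.8%, ENSMUST00000019514 held 95.5%, ENSMUST00000034777 held 39.65% and ENSMUST00000163820 held 39.03%. Over protein-coding transcripts only, ENSMUST00000040440 held 99.7% in RVC and 99.4% in fresh frozen and ENSMUST00000019514 held 96.3%; ENSMUST00000238271 has no value there. No transcript of the 3 genes is under 300 nt. Fragment numbers are unknown, so how depth limits the minor transcripts can be read only from the FPKM bounds. The effect of depth on detection or on the division of shared reads was not tested.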
